A study of Arabidopsis thaliana with 4 samples.

Results

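Non-hair epidermis cells were picked out of single-cell transcriptomes of regenerating Arabidopsis thaliana root tips. A cell was a member when it had at least 1 transcript of at least 3 of 8 genes (GL2, MYB23, XTH17, AT1G19900, AT1G06120, AT4G22666, CER4 and AT1G14960) and transcripts of fewer than 3 of 6 root hair genes (COBL9, EXPA7, EXPA18, PRP3, LRX1 and ADF8). This rule found 401 members among 10529 cells. Wild type (WT) was compared with the quadruple mutant lbd6 lbd36 lbd12 lbd15, called lbd_quad here, with 2 libraries each. All plants were 7 days old when the tip of the primary root was cut off, and all recovered for 16 h before a stretch of about 1 cm was collected, so no uncut root serves as a control here. The labels give neither the mutant alleles, nor the ecotype, nor the number of plants in a library. Enzymes freed the cells of their walls to give protoplasts, and the 3' ends of their transcripts were counted by unique molecular identifiers (UMIs) in droplets. Nothing in the labels says that the libraries came from separate batches of plants, so p-values measure the spread between these libraries, which may be technical.

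The outer cell layer of the Arabidopsis root is made of alternating files of hair cells and non-hair cells. The file is set by position: a complex of the MYB factor WER with GL3 or EGL3 and TTG1 turns on GL2 in the future non-hair cell, GL2 blocks the hair program there, and the small MYB protein CPC moves into the neighbouring file and allows hairs. MYB23 is a close relative of WER that maintains the non-hair state. LBD genes encode plant transcription factors of the LATERAL ORGAN BOUNDARIES family, which mark organ boundaries and take part in the formation of new organs.

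Members made up a small share of every library. The first WT library held 74 among 1746 cells (4.24%, 95% Wilson interval 3.39% to 5.29%) and its duplicate 159 among 5061 (3.14%, 2.70% to 3.66%). The first lbd_quad library held 32 among 846 (3.78%, 2.69% to 5.29%) and its duplicate 136 among 2876 (4.73%, 4.01% to 5.57%). The genotypes overlapped, at a mean of 3.69% ± 0.775 in WT and 4.26% ± 0.669 in lbd_quad (SD, n = 2 each; exact two-sided permutation p = 0.667). The smallest p that 2 libraries against 2 can give is 0.333, so no share could pass 0.05. Intervals cover counting error only.

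The share at equal depth differed from that at full depth. The median member of WT replicates 1 and 2 had 2980 and 1934 UMIs, and that of lbd_quad replicates 1 and 2 had 8350.5 and 1898.5. When each cell was thinned to 1000 UMIs and shallower cells were left out, the share was 47 of 1746 cells (2.69%), 70 of 3843 (1.82%), 5 of 846 (0.591%) and 62 of 2244 (2.76%) in the same order. Only 5 cells of lbd_quad replicate 1 thus met the rule at equal depth, and the difference between genotypes changed sign, from 0.566 to -0.580 percentage points. Leaving out the shallower cells without thinning gave 0.532. The members of lbd_quad replicate 1 stand apart in this way, and values without that library are given beside the results that move most with it. Library pairs shared 0 to 3 cell barcodes, and 0 among members.

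**Figure D1:**
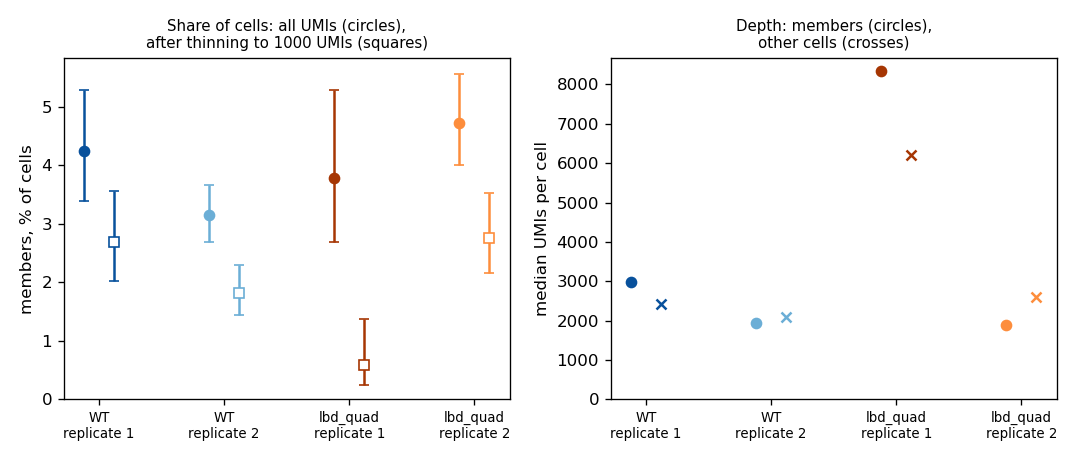
Left, the percentage of cells that met the rule in each library, from all UMIs (filled circles) and after thinning to 1000 UMIs per cell (open squares), with 95% Wilson intervals; right, the median UMIs per cell of members (circles) and other cells (crosses). The thinned share of lbd_quad replicate 1 is 0.591%, below the 1.82% to 2.76% of the other 3 libraries.

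The rule genes chose the cells, so their levels are given as a description. Levels are mean UMIs per 10000 UMIs of a cell, averaged over the members of a library, and library values are given with both WT replicates first and both lbd_quad replicates after them. AT4G22666, which encodes a protein of the lipid-transfer superfamily, was detected in 86.8% of members, at 33.1, 31.6, 22.0 and 41.2. It is not confined to members, as it averaged 17.3 in the root hair cells of WT replicate 2, which are defined below. XTH17, a xyloglucan endotransglucosylase/hydrolase that remodels wall polysaccharides, was detected in 79.3%, at 25.9, 39.0, 4.45 and 32.2. AT1G14960, from a superfamily of polyketide cyclases and lipid transport proteins, was detected in 71.3%. AT1G06120, of the fatty acid desaturase family, was detected in 62.6%, AT1G19900, related to glyoxal oxidase, in 46.6%, and CER4, a fatty acyl-CoA reductase that makes primary alcohols of waxes, in 31.4%. The 2 regulators were sparse: MYB23 was found in 20.4% of members and GL2 in 13.2%. Membership therefore rested mostly on genes of wall and lipid metabolism and seldom on the factors that set the cell's fate.

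Cells that should lack these genes gave the background of free RNA in the droplets. Endodermis cells, marked by at least 3 of 9 endodermis markers, had a median of 4123.5 to 7870 UMIs across libraries, which was more than members had except in lbd_quad replicate 1. Each of the 8 genes was detected in 0% to 5.74% of them. XTH17 and AT1G19900 were lowest in the members of lbd_quad replicate 1, at 4.45 and 1.54, against 25.9 to 39.0 and 7.05 to 9.60 in the other 3 libraries. The 2 lbd_quad libraries thus differed more from each other in XTH17 than either WT library did from lbd_quad replicate 2.

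**Figure D2:**
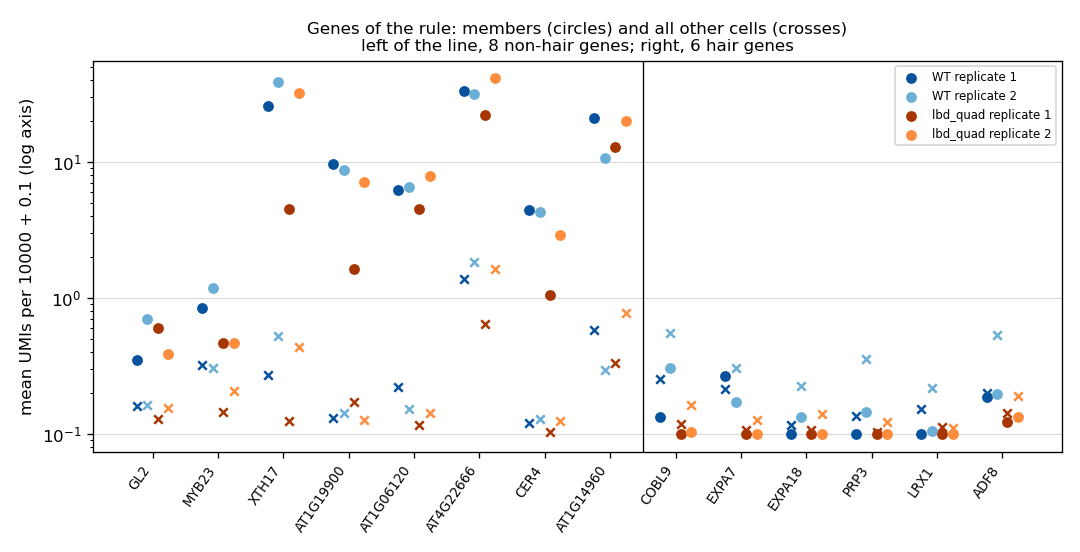
Mean UMIs per 10000 plus 0.1, on a log axis, of the 14 rule genes in members (circles) and all other cells (crosses) of each library. XTH17 in members lies at 4.45 in lbd_quad replicate 1 and between 25.9 and 39.0 in the other 3 libraries.

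Many members lay at the threshold of 3 genes, and more lay above it. Exactly 3 of the 8 genes were detected in 168 members (41.9%), 4 in 97 and 5 or more in 136 (33.9%), while 447 cells with fewer than 3 hair genes had exactly 2 and stayed outside. Levels of genes outside the rule along this scale are a description, without a test. CSLB05 (AT4G15290), a member of the cellulose synthase-like B family, averaged 0.544 over the 4 libraries in cells with exactly 2 genes, 2.80 in those with 3, 2.68 in those with 4 and 8.27 in those with 5 or more. The plasma membrane aquaporin PIP2;4 averaged 2.08, 5.71, 13.8 and 20.3 in the same steps, and its relative PIP1;5 averaged 2.27, 4.6, 8.32 and 19.8. All 3 genes were also detected, at lower levels, in the cells just outside the rule.

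**Figure D3:**
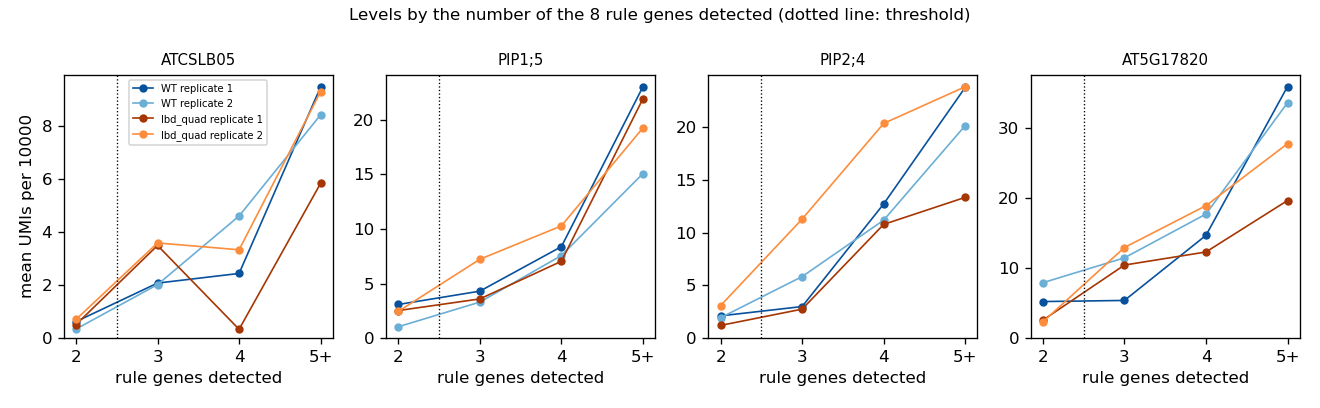
Mean UMIs per 10000 of CSLB05 (labelled ATCSLB05), PIP1;5, PIP2;4 and the peroxidase AT5G17820 in cells with 2, 3, 4 and 5 or more of the 8 rule genes, 1 line per library, with the threshold as a dotted line. PIP2;4 runs from a mean of 2.08 just outside the rule to 20.3 at 5 or more genes.

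The label was checked against genes that the rule did not use. Of 15 epidermal patterning genes, 12 were in the matrix and 0 were higher in members than in other cells in 4 of 4 libraries. WER, the MYB factor of the non-hair complex, stood at 0.148, 0.153, 0.0147 and 0.0248 in members and at 0.119, 0.106, 0.0603 and 0.0667 in other cells. CPC stood at 0.880, 2.11, 0.589 and 1.46 in members and at 1.12, 1.81, 0.981 and 1.59 in other cells. The patterning genes outside the rule therefore did not set these cells apart, and their low counts limit what they can show.

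The root hair program gave a mixed picture. Of its 24 listed genes, 23 were in the matrix. Of these, 3 were higher in members than in other cells in 4 of 4 libraries and 4 were lower. The 3 were the NADPH oxidase RBOHC, the wall protein gene LRX2 and the lipid kinase PIP5K3. Of all genes with a mean of at least 0.1 in members, 21.4% were higher in 4 of 4 libraries. Of the 7899 genes tested below, 1683 were higher in members in 4 of 4 libraries and 2484 were lower. Lists and families here also hold genes under that level, which can count as lower with few or no UMIs. RBOHC, whose product makes reactive oxygen at the hair tip, stood at 2.29, 3.44, 1.5 and 1.11 in members. The root hair genes RHS13 and RHS19 were at or near 0, at 0 to 0.110 and 0 to 0.0971 across libraries, where the 88 root hair cells of WT replicate 2 averaged 8.53 and 8.27. At least 1 of the 6 hair genes of the rule was found in 1.47% to 8.11% of the members of a library.

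Markers of other tissues were scarce. At least 3 markers of another class were found in 7 of 401 members: 4 with root cap markers and 1 each with endodermis, cortex and phloem markers. The summed level of the 9 endodermis markers was 0.0835 to 2.29 per library in members, against 3.70 to 9.48 in other cells, with the upper value in lbd_quad replicate 2, where CASP1 stood at 0.831 and was at 0 in the other 3 libraries. The summed level of 11 root cap markers was 11.7, 14.1, 0.828 and 2.06 in members, of which CEP2, a cysteine protease, made up 10.9, 13.2, 0.348 and 0.543. SMB, FEZ and CEL5, which define root cap, were at 0 to 0.0626 in members. The effect of these few cells on the results below is given by the fit without them.

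Genes of growing meristem cells were low in members. The summed level of 10 cell cycle genes was 0.0695, 0.590, 0.104 and 0.912 in members and 1.02 to 1.40 in other cells. All 5 ribosome biogenesis genes, among them the nucleolin NUC1 and the fibrillarins FIB1 and FIB2, were lower in members than in other cells in 4 of 4 libraries, at a summed 0.972 to 2.53 against 5.80 to 9.92. These contrasts are between cells picked by their own transcripts and the rest, and carry no test.

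Outside the rule, 10 genes led the members, ranked by the mean log2 ratio to other cells over the libraries. Of 7907 genes with a mean of at least 0.1 in members, 21.4% were higher in members in 4 of 4 libraries, and among 1792 genes with a mean of at least 1 it was 736, with 508 lower. Within those 1792 genes, 16 were at least 8-fold higher in 4 of 4 libraries. CSLB05 was the leading gene, at 6.12, 4.75, 3.79 and 5.09 in members and 0.0863, 0.0443, 0.0360 and 0.0887 in other cells. No library mean of CSLB05 in members came near its means in other cells. It was detected in 34.4% to 43.2% of the members of a library and in 0% to 3.12% of endodermis cells.

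Wall peroxidases formed a group among the leading genes. Class III peroxidases are secreted enzymes that cross-link or loosen wall polymers with hydrogen peroxide. AT2G39040 stood at 18.9, 10.3, 6.09 and 4.77 in members and at 0.713, 0.362, 0.292 and 0.446 in other cells. AT5G17820 stood at 22.9, 20.0, 14.3 and 18.4 in members and at 2.62, 2.90, 0.312 and 0.446 in other cells. Both were higher in members of every library. Of the 54 peroxidase genes in the matrix, 14 were higher in members in 4 of 4 libraries and 25 were lower. The 54 include 13 with 0 UMIs in all members, so the count of lower genes says little about the family.

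Lipid-transfer, latex and water-channel genes made up most of the rest. AT5G46900, of the lipid-transfer superfamily, stood at 77.2, 74.8, 36.4 and 81.3 in members and at 6.77, 6.18, 0.97 and 3.38 in other cells. Its neighbour in name, AT5G46890, stood at 47.2, 33.0, 39.0 and 76.2. Their reference transcripts share a stretch of 202 bases, so their counts may be split between them and are uncertain. Both were also found in 18.8% to 92.3% of endodermis cells, so a UMI of either in a single cell does not mark a member. In the root hair cells of WT replicate 2, AT5G46900 averaged 46.7 and AT5G46890 averaged 20.7, below the members of that library but not low. MLP34, a major latex protein-like gene, stood at 25.5, 11.7, 18.5 and 6.42 in members and at 0.279 to 2.94 in other cells.

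The aquaporin PIP1;5 stood at 14.9, 8.15, 11.1 and 11.2 in members and at 0.357 to 1.11 in other cells. PIP2;4 stood at 15.3, 11.8, 8.23 and 16.8 in members and at 0.480 to 1.03 in other cells. Plasma membrane aquaporins carry water across the cell membrane, and members of every library stood above other cells for both. Endodermis cells had them too, PIP1;5 in 7.89% to 51.3% of cells across libraries and PIP2;4 in 11.8% to 56.4%. Of 26 aquaporin genes, 13 were higher in members in 4 of 4 libraries and 3 were lower. The 26 include 2 with 0 UMIs in all members. SDR4, a short-chain dehydrogenase, was the ninth of the leading genes, at 18.7, 12.2, 6.88 and 8.89 in members.

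**Figure D4:**
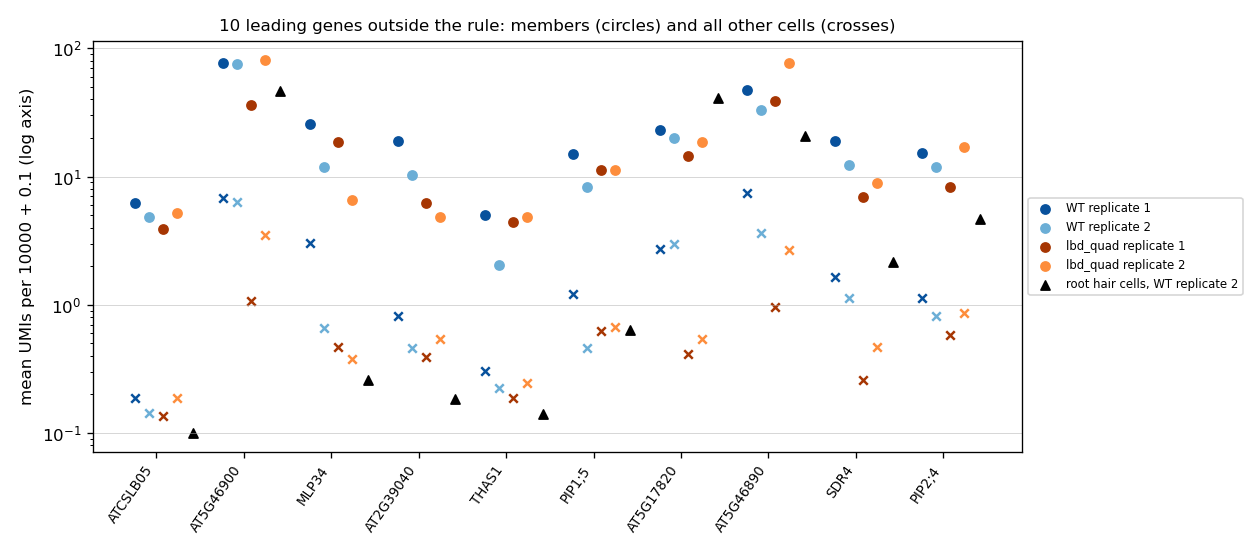
Mean UMIs per 10000 plus 0.1, on a log axis, of the 10 leading genes outside the rule in members (circles) and other cells (crosses) of each library and in the 88 root hair cells of WT replicate 2 (triangles). CSLB05 (labelled ATCSLB05) lies at 3.79 to 6.12 in members and at 0.0360 to 0.0887 in other cells, while AT5G17820 is higher in the hair cells, at 41.0, than in members.

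The thalianol cluster is a set of neighbouring genes whose enzymes build a triterpene in roots, starting with the synthase THAS1. THAS1 stood at 4.95, 1.94, 4.33 and 4.78 in members and at 0.0864 to 0.207 in other cells. All 5 cluster genes were higher in members in 4 of 4 libraries, with a summed level of 14.8, 6.02, 18.2 and 15.9 against 0.586 to 1.26 in other cells. The cytochrome P450 CYP705A5 stood at 6.14, 2.01, 7.82 and 5.41. WT replicate 2 had the lowest sum of the 4 libraries. This group, like the other families here, was put together after values had been seen.

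Other listed genes showed which wall and surface genes these cells carried. XTH18 stood at 37.1, 51.1, 47.9 and 51.6 in members, an even level across libraries, and at 2.58 to 6.77 in other cells. Its reference transcript shares 47 bases with that of XTH17, so some of its reads may be hard to tell from those of the rule gene. Of the 17 listed XTH and expansin genes, 5 were higher in members in 4 of 4 libraries and 8 were lower. The 17 include 2 with 0 UMIs in all members. KCS5, a ketoacyl-CoA synthase that lengthens fatty acids, stood at 2.54, 1.98, 1.56 and 1.06 in members and at 0.0748 to 0.121 in other cells. Of 17 wax and cutin genes in the matrix, KCS5 and KCS20 were the 2 that were higher in members in 4 of 4 libraries. A further 6 were lower, and 5 of the 17 had 0 UMIs in all members. Of 17 nutrient and water uptake genes in the matrix, 10 were higher in members in 4 of 4 libraries and 0 were lower; they included the ammonium transporter AMT1;1, at 9.75, 9.95, 6.49 and 4.82.

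Members with and without MYB23 differed. MYB23 transcripts were found in 17, 37, 9 and 19 members of the 4 libraries, and CSLB05 averaged 0.659, 1.08, 0 and 0.180 in them, against 7.75, 5.86, 5.27 and 5.89 in members without MYB23. CER4 averaged 0.600, 1.27, 0 and 0 in members with MYB23, against 5.47, 5.13, 1.33 and 3.28 in the others. In all 4 libraries the members with MYB23 were lower in both genes. All 10 leading genes and 6 of the 7 other rule genes were likewise lower with MYB23 in 4 of 4 libraries, and GL2 was higher, at 0.539, 0.646, 0.695 and 0.736 against 0.164, 0.579, 0.432 and 0.212. Their depth differed as well, at a median of 4815, 4334, 12700 and 16431 UMIs against 2875, 1796, 7598 and 1638, and its part in the split was not tested. Because a cell without MYB23 had to show 3 of the other 7 rule genes, the rule itself favours such a split for CER4, and for genes such as CSLB05 whose level goes with the number of rule genes.

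The nearest cell type was the root hair cell, defined as at least 3 of the 6 hair genes and fewer than 3 of the 8 non-hair genes. There were 5, 88, 1 and 6 such cells in the 4 libraries, and 12 cells met both thresholds. WT replicate 2 alone had the planned minimum of 10 cells of each kind, so its 159 members and 88 hair cells are described without a test. Of 2294 genes at a level of at least 1 in either set, 48 (2.09%) were at least 8-fold higher in members and 86 (3.75%) at least 8-fold higher in hair cells. Highest relative to hair cells were AT4G12545, of the lipid-transfer superfamily, at 12.7 against 0.0588, and AT2G39040, at 10.3 against 0.0831. CSLB05 had 166 UMIs in members and 0 of 347168 UMIs in hair cells. The chitinase family gene AT2G43590 stood at 21.0 against 0.491. In the other direction stood HRGP1, an extensin-like wall protein, at 0.294 in members against 23.3, and AGP3, an arabinogalactan protein, at 0.0507 against 6.98.

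The mutated genes were looked at first among the genotype differences. LBD12 stood at 1.67, 1.40, 0.288 and 0.205 in members, and the genotypes did not overlap. It fell in lbd_quad members by 2.24 on the log2 scale (SE 0.46, limma adjusted p = 0.0422). Over 13 alternatives its adjusted p ran from 0.000173 to 0.928, and 2 of them passed. The other 3 targeted genes were near 0 in members of either genotype, with 0 UMIs of LBD6 in all, 1 of LBD36 and 0, 3, 1 and 2 of LBD15, so their state in these cells could not be read. Where in a gene the alleles act is not given, so transcript levels are a limited check of the genotype.

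Among 7899 genes tested in members, 41 (0.519%) passed an adjusted p of 0.05, with 15 higher (0.19%) and 26 lower (0.329%) in lbd_quad. At an unadjusted p below 0.05 there were 661 genes (8.37%), and in 36.8% of all genes tested the libraries of the genotypes did not overlap. The median log2 fold change over all genes was -0.02. The fold changes below are lbd_quad over WT, on log2(level + 0.1), which understates the change of low genes, with 2 libraries per genotype. The count was 20 without lbd_quad replicate 1, 6 without lbd_quad replicate 2, 2 without WT replicate 1 and 3 without WT replicate 2, and 18 with the rule applied at equal depth. AT4G12545 and AIR1 were the 2 genes called whichever library was left out. The fit at equal depth kept lbd_quad replicate 1 with 5 members. In means over cells, fewer cells with a transcript and less transcript per cell cannot be told apart except where detection is given.

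The largest falls were in genes of the lipid-transfer superfamily, small secreted proteins with a conserved pattern of cysteines. AT4G12545 stood at 36.9 and 12.7 in WT members and at 0 in both lbd_quad libraries (log2 fold change -7.76, SE 0.52, limma adjusted p = 3.94e-06). It was detected in 62 of 74 and 117 of 159 WT members and in 0 of 32 and 0 of 136 lbd_quad members, which allows a share of cells with a UMI, not of cells that express the gene, of up to 9.38% and 2.21%. All 1586 UMIs came from WT, and with a floor of 3 UMIs over the group the lbd_quad members pooled were at least 591-fold lower. Leaving out a WT library moved this limit to 298 (replicate 1) or 1134 (replicate 2), and leaving out an lbd_quad library moved it to 380 (replicate 1) or 211 (replicate 2). In WT endodermis cells it was detected in 12.8% and 1.64%, well under its share in members. With UMIs summed over cells and limma voom, its adjusted p was 0.149.

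AIR1 (AT4G12550), named for its induction by auxin in root cultures, stood at 13.4, 6.07, 0 and 0, with 655 UMIs in WT members and 0 in lbd_quad (log2 fold change -6.51, SE 0.49, limma adjusted p = 8.96e-06). With the same floor, lbd_quad members pooled were at least 244-fold lower, and the adjusted p with limma voom was 0.149. Without the same libraries in turn, the limit was 140, 437, 157 and 87.1. The transcripts of AIR1 and AT4G12545 share 87 bases, so reads may be split between them. AT4G15160, also of the superfamily, stood at 31.6, 31.6, 1.12 and 0.310 (log2 fold change -5.49, SE 0.52, limma adjusted p = 9.94e-05). Members with a UMI of it were 89.2% and 83.0% in WT and 21.9% and 5.88% in lbd_quad. Of 19 lipid-transfer genes tested, these 3 fell and 0 rose. The family was drawn up by annotated product name, except AIR1, which was added by hand with its values known. The count of falls is therefore a description of the set and no evidence about the family. AT4G12510, at 71.5, 45.8, 47.4 and 53.1, and AT5G46900, at 77.2, 74.8, 36.4 and 81.3, did not pass.

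Genes of the pectin lyase-like superfamily, which holds wall-degrading polygalacturonases, made up a second group. Of 19 tested, 4 fell, 0 rose, and 15 had a negative fold change, with a median of -0.54 in members and -0.51 in other cells, against -0.02 over all genes. The median in members was -0.31 without WT replicate 2 and -0.31 without lbd_quad replicate 2. AT2G43890 stood at 2.33, 1.14, 0.0637 and 0.0273, and AT3G59850 at 1.87, 1.69, 0.0168 and 0.154. AT1G05660 stood at 7.16, 4.61, 1.06 and 0.800, and AT1G05650 at 5.78, 2.21, 0.123 and 0.630. The transcripts of the last pair share 65 bases, so their counts are not independent. Their adjusted p with limma ran from 0.00333 to 0.0252.

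Further falls were in 2 aquaporin genes and the carrier gene ABCB1. NLM1, an aquaporin-like channel of the NOD26 group, stood at 18.2, 16.2, 1.56 and 1.58 (log2 fold change -3.37, SE 0.42, limma adjusted p = 0.00144), a wide gap with little spread within a genotype. It was higher in members than in other cells in 4 of 4 libraries, at 2.14, 2.18, 0.165 and 0.437 in the latter. The aquaporin PIP2E stood at 1.19, 1.63, 0 and 0.108. Of 19 aquaporins tested, these 2 fell and 0 rose, and the leading genes PIP1;5 and PIP2;4 had log2 fold changes of 0.02 and -0.19. ABCB1, a carrier that exports auxin, stood at 3.27, 3.33, 0.499 and 0.460 (log2 fold change -2.55, SE 0.44, limma adjusted p = 0.0138).

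Both tested genes of the D-arabinono-1,4-lactone oxidase family fell. GulLO5 stood at 3.69, 8.05, 0.469 and 0.512 and GulLO3 at 1.06, 1.26, 0.188 and 0.0136. COBL5, a short relative of the wall protein COBRA, stood at 12, 17.2, 2.51 and 2.93 (log2 fold change -2.36, SE 0.43, limma adjusted p = 0.0213). The arabinogalactan protein AGP30, a wall glycoprotein, stood at 6.82, 2.04, 0.0411 and 0.0430 (log2 fold change -4.76, SE 0.55, limma adjusted p = 0.000651). The 10 largest falls also included AT2G41810, of unknown function, at 2.45, 0.474, 0 and 0.00336, and the ELO-like gene AT3G06460, at 0.834, 1.24, 0 and 0. The remaining falls were PPa5, AT5G10130, AT5G47550, AT2G17280 and AT3G21680, with log2 fold changes from -3.47 to -2.38.

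Part of the falls were in genes that members carried less than other cells. Of the 26, 7 were lower in members than in other cells in both WT libraries: AGP30, BGLU35, CEP2, MLP-300B, AT3G06460, AT5G10130 and AT1G06090. BGLU35, a beta-glucosidase, stood at 2.77, 1.84, 0 and 0 in members and at 17.8, 8.25, 9.67 and 1.80 in other cells, and was found in 12 and 3 WT members. CEP2 fell from 10.9 and 13.2 to 0.348 and 0.543 (log2 fold change -4.49, SE 0.44, limma adjusted p = 0.00014) and stood at 20.0, 14.8, 4.63 and 1.92 in other cells and at 58.2 in the hair cells of WT replicate 2. MLP-300B, a myrosinase-binding protein-like gene, and AT1G06090, of the fatty acid desaturase family, were at 1.54 to 8.52 and 1.44 to 10.6 in other cells. Their log2 fold changes in other cells were -0.99 and -1.15, and the part of free RNA from other cells was not tested. Without the 7 members that had markers of another class, 4 of these genes did not pass: BGLU35 (log2 fold change -2.59, limma adjusted p = 0.0702), MLP-300B (-2.17, adjusted p = 0.126), AT3G06460 (-2.37, adjusted p = 0.101) and AT1G06090 (-1.79, adjusted p = 0.347). AGP30, CEP2 and AT5G10130 passed, at -4.77, -4.84 and -3.73. The 6 that were higher in members in 4 of 4 libraries were NLM1, GulLO5, AT1G05650, AT1G05660, AT3G21680 and COBL5.

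**Figure D5:**
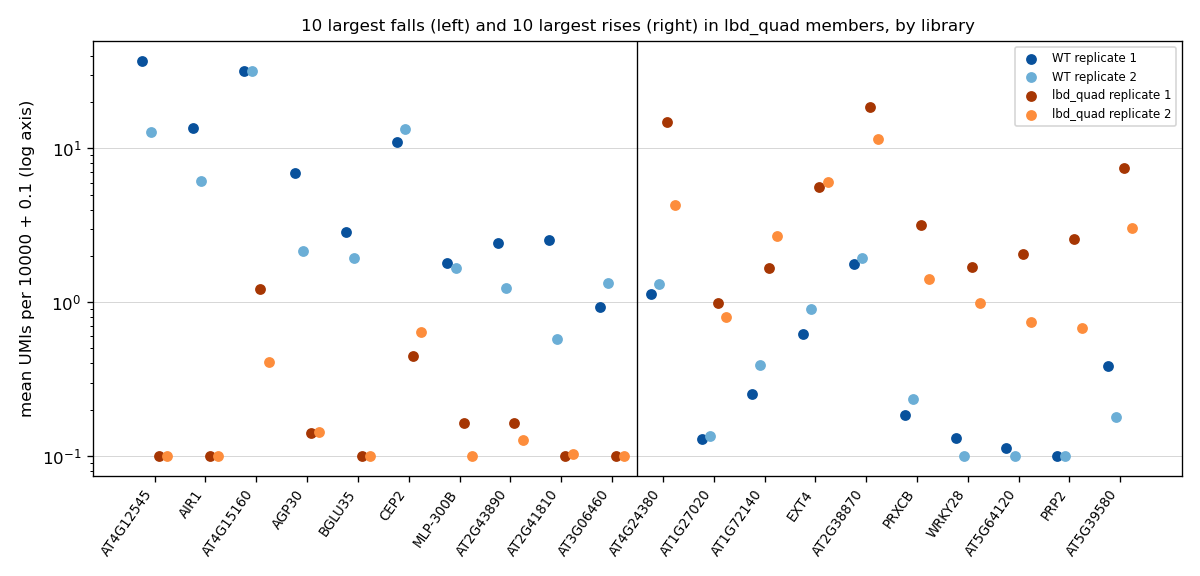
Mean UMIs per 10000 plus 0.1, on a log axis, in the members of each library for the 10 largest falls and 10 largest rises that passed the test. WT and lbd_quad libraries do not overlap for any of the 20 genes, and AT4G12545 and AIR1 lie at 0 in both lbd_quad libraries.

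Peroxidases led the rises. AT5G39580 stood at 0.286 and 0.0792 in WT members and at 7.31 and 2.93 in lbd_quad (log2 fold change 4.17, SE 0.55, limma adjusted p = 0.00185). AT5G64120 stood at 0.0134, 0, 1.95 and 0.641, and PRXCB at 0.0837, 0.135, 3.09 and 1.31. Of 25 peroxidases tested, these 3 rose and 0 fell, yet 17 of the 25 had a negative fold change and the leading genes AT2G39040 and AT5G17820 had log2 fold changes of -1.36 and -0.40 (limma adjusted p = 0.326 and 0.902). In each of the 3, lbd_quad replicate 1, the deeper library, stood above lbd_quad replicate 2. With the rule applied at equal depth the log2 fold change of AT5G39580 was 1.55 (adjusted p = 0.826), and without lbd_quad replicate 1 it was 3.53 (adjusted p = 0.0477). AT5G64120 and PRXCB did not pass without that library, at 2.80 (adjusted p = 0.225) and 2.76 (adjusted p = 0.112). Of all 15 rises, 3 passed without it, AT5G39580, EXT4 and AT2G38870, and of the 26 falls 15 passed.

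Other genes that rose included the following 5. EXT4, an extensin, stood at 0.522, 0.806, 5.54 and 5.93 (log2 fold change 2.96, SE 0.45, limma adjusted p = 0.00414). Over the alternatives that kept all libraries its limma adjusted p ran up to 0.939. Its UMIs lay in few cells, with 295 in 8 members of lbd_quad replicate 1 and 188 in 24 members of lbd_quad replicate 2. PRP2, a proline-rich wall protein, had 0 UMIs in WT members and 64 in lbd_quad, at least 19.1-fold higher against the floor of 3 UMIs over the group. Of these, 48 UMIs were in 3 cells of lbd_quad replicate 1 and 16 in 10 cells of lbd_quad replicate 2. The limit was 7.42 without lbd_quad replicate 1, 40.1 without lbd_quad replicate 2, 12.4 without WT replicate 1 and 6.69 without WT replicate 2, and without lbd_quad replicate 1 PRP2 did not pass (log2 fold change 2.77, limma adjusted p = 0.235). AT2G38870, a serine protease inhibitor of the potato type, stood at 1.68, 1.84, 18.4 and 11.4 (log2 fold change 2.97, SE 0.44, limma adjusted p = 0.00414) and was detected in 35.1% and 30.8% of WT members and 87.5% and 52.9% of lbd_quad members. The transcription factor WRKY28 stood at 0.0299, 0, 1.60 and 0.893. TCH3, a calmodulin-like gene that responds to touch, stood at 0.551, 0.174, 2.85 and 2.45.

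The remaining 7 rises included a gene of the thalianol cluster. AT5G47980, an acyltransferase of the thalianol cluster, stood at 0.388, 0.145, 1.89 and 1.66 (log2 fold change 2.44, SE 0.49, limma adjusted p = 0.039), while THAS1 had a log2 fold change of 0.54 (adjusted p = 0.873). The carrier AT1G72140 stood at 0.152, 0.290, 1.57 and 2.60. AT4G24380 stood at 1.02, 1.20, 14.9 and 4.20, and did not pass without lbd_quad replicate 1 (log2 fold change 1.83, limma adjusted p = 0.227). AT1G27020 stood at 0.0286, 0.0355, 0.889 and 0.703. WIH2, AT1G23205 and DIP2 completed the 15, with log2 fold changes of 2.43 to 2.57.

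Listed pathways were mostly not called, and their members are named here after their values were seen. Of 14 tested genes of wounding, jasmonate and regeneration, 0 passed, 13 had a positive fold change, and 7 were higher at an unadjusted p below 0.05, where 4.37% of all genes were. Their median log2 fold change was 1.16 in members, -0.02 over all genes, and 0.63 for the same genes in other cells. Their summed level was 11.1, 5.10, 30.8 and 13.0, highest in lbd_quad replicate 1. Without that library the median was 0.49 over 12 tested genes, 10 of them positive and 1 higher at an unadjusted p below 0.05. The median was 0.69 without WT replicate 2, 1.58 without WT replicate 1 and 1.79 without lbd_quad replicate 2. OPR3, an enzyme of jasmonate synthesis, stood at 0.340, 0.180, 5.04 and 0.390, so a single library carried most of its difference, and its log2 fold change without that library was 0.48. The ethylene response factor ERF109 stood at 0.703, 0.655, 3.17 and 1.07, and WRKY18 at 2.79, 1.01, 4.38 and 4.61.

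Uptake genes leaned the other way. Of 14 tested, 0 passed, 13 had a negative fold change, and 4 were lower at an unadjusted p below 0.05, where 4% of all genes were. Their median log2 fold change was -0.52 in members and -0.63 in other cells. NRT1.1, a nitrate transporter, stood at 7.20, 4.61, 1.85 and 1.04 (log2 fold change -1.97, SE 0.47, limma adjusted p = 0.091). The sulfate transporter SULTR1;2 stood at 16.1, 17.7, 8.80 and 5.65, and the proton pump AHA2 at 19.9, 17.8, 9.0 and 9.85. For all 3 the genotypes did not overlap, as for 36.8% of the genes tested.

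Wall-loosening genes were split. Of 10 XTH and expansin genes tested, 0 passed, 7 had a negative fold change, and 2 were higher and 4 lower at an unadjusted p below 0.05. Their median log2 fold change was -0.94 in members and -0.16 in other cells. It was -0.60 without WT replicate 2. EXPA17 stood at 27.1, 11.3, 5.45 and 2.49 (log2 fold change -2.22, SE 0.52, limma adjusted p = 0.0882), and XTH18 had a log2 fold change of 0.19. PIN2, the auxin efflux carrier of the root epidermis, stood at 1.40, 1.17, 0.236 and 0.265 (log2 fold change -1.98, SE 0.45, limma adjusted p = 0.0854). Of 8 auxin genes tested 0 passed, and likewise 0 of 8 wax and cutin genes and 0 of 6 callose and plasmodesmata genes. The same held for 0 of 6 root hair genes, 0 of 5 ribosome biogenesis genes and 0 of 2 patterning genes. Over all genes tested 0.519% passed, so a count of 0 in lists this short says little.

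Whether members changed differently from other cells was tested as an interaction. No gene passed an adjusted p of 0.05 (limma, 0% of 7899), and 558 had an unadjusted p below 0.05. A fit by limma voom on summed UMIs likewise gave 0. In simulated data this fit recovered 13.5% of genes with a log2 difference of 2 and 75% of those with 3. A count of 0 therefore does not show that members and other cells responded alike. The smallest adjusted p was 0.0846, for WIH2, AIR1 and AT4G12545. AT4G12545 stood at 1.33, 0.182, 0.00375 and 0.00710 in other cells, with a log2 fold change of -2.59 there against -7.76 in members. The added 0.1 holds down the fold change more in other cells, where levels were low. These 2 fold changes therefore do not show a weaker fall outside members. AIR1 stood at 0.575, 0.0943, 0.00591 and 0 in other cells and has the same limit. WIH2 stood at 0.0235, 0.0309, 0.636 and 0.605 in members and at 1.03, 0.721, 0.862 and 0.628 in other cells, so it was lower in members in 4 of 4 libraries. It was detected in 79.5%, 66.4%, 84.4% and 35.5% of endodermis cells, and the part of free RNA in its rise in members was not tested. Without the 7 members with markers of another class its log2 fold change in members was 2.52 (limma adjusted p = 0.0402). The peroxidase AT5G17820 showed the reverse, at 2.62, 2.90, 0.312 and 0.446 in other cells and 22.9, 20.0, 14.3 and 18.4 in members (interaction log2 2.19, SE 0.36, limma adjusted p = 0.152). Of the 41 genes called in members, 39 had the same direction in other cells. The share over all genes tested is not given here, and the other cells came from the same libraries, so this is a description only. No gene was shown to respond differently in members.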

How the data were processed

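The authors deposited a single matrix of natural log values, ln(1 + UMIs per 10000 UMIs of a cell), as read from its values. The submitters' processing notes name Cell Ranger 7.0.1 and Seurat; the genome build, filters and any doublet removal are not given in the sources used here. The chemistry was version 2 of the 3' kit, per the labels' protocols. Of 13844 cell columns, 10529 matched the 4 samples and 3315 were not used. Whole UMI counts were recovered for 100% of values within 0.01. Cells had 562 to 24898 UMIs, members 303652 to 622296 UMIs per library; all cells were kept, and no doublet caller was run.

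UMIs per 10000 were averaged over the members of a library. Genes with a mean of at least 0.1 were tested as log2(mean + 0.1) with limma 3.58.1 in R 4.3.3 (trended prior, Benjamini-Hochberg 0.05 over all genes; the 14 rule genes left out). The interaction fit had library as a random block, with a correlation of 0.344. Shares were compared by exact permutation. The planned test against hair cells was planned for libraries with at least 10 cells of each kind; 1 library had them, so no test was made. Alternatives were another pseudocount, no filter, median-of-ratios size factors, limma voom on summed UMIs, stricter rules for cells, each library left out, and the replicate number as a block. The fits were tested on simulated data.

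The members and gene lists were chosen with earlier results of these data known, and the families (peroxidases, lipid-transfer and so on) after values were seen. Named genes are the rule genes, the 10 leading genes, the 10 largest rises and falls past the threshold, and list members past it; others are named as chosen after their values were seen. Of the 189 listed and 44 marker genes, 12 were not analysed here. Symbols come from the TAIR10.1 table, in which all 20511 identifiers matched.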

Additional observations from a re-analysis of the deposited data

How the results depend on the processing

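The count of 41 genes that differed between genotypes in members was 24 with a pseudocount of 1, 22 with no filter on low values, 6 with limma voom on summed UMIs, 86 with at least 4 of the 8 genes (37 of them shared) and 18 with the rule applied after thinning to 1000 UMIs (12 shared; chosen after seeing the data). Leaving out a library gave 2 to 20. Size factors, cells of at least 2000 UMIs and members without markers of another class gave 39, 52 (33 shared) and 38. All 41 genes kept their direction under every alternative that gave them a value. For a library left out, another pseudocount, no filter and the replicate block this follows from groups that do not overlap, so it adds no evidence. The interaction count of 0 was 5 with a pseudocount of 1 and 2 without lbd_quad replicate 2, and 0 in every other alternative, with the correlation of all libraries kept when a library was left out. The difference in share, 0.566 percentage points, was -0.580 after thinning to 1000 UMIs, 0.532 in cells of at least 1000 UMIs not thinned (chosen after seeing the data) and -0.0793 with at least 4 of the 8 genes, and ran from 0.0174 to 1.11 with a library left out. The cause of these shifts was not tested.

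With the replicate number as a block the count was 251 (138 higher, 113 lower). Libraries of the same number deviated together weakly (r = 0.159 over 7899 genes), but with 2 pairs and no label that ties them the numbers were not taken to pair the libraries. The alternatives for the comparison with hair cells were not run, since a single library held the planned minimum of cells. Leaving out libraries for the lower limits of fold and the list medians was also chosen after seeing the data. The 32 members of lbd_quad replicate 1, the shortest list of cells, and genes near the floor of 3 UMIs limit the precision.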
